A study of Saccharomyces cerevisiae with 4 samples.

Results

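The ribosomal stalk protein genes of the budding yeast Saccharomyces cerevisiae are RPP0, RPP1A, RPP1B, RPP2A and RPP2B. These 5 genes were chosen by name from the 6002 nuclear protein-coding genes of the R64 gene table and were all found in it. The stalk is a flexible arm of the large ribosomal subunit. The protein P0, encoded by RPP0, sits at its base beside Rpl12 and carries pairs of small acidic proteins, each pair made of a P1 and a P2 protein. Their shared C-terminal tail touches the translation factors that split GTP on the ribosome, such as the elongation factors eEF1A and eEF2. In yeast P0 is essential, whereas cells survive without the P1 and P2 proteins, which also move on and off the ribosome.

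Arp4 is an actin-related protein of the nucleus and a subunit of NuA4, which acetylates histones, and of SWR1 and INO80, which remodel nucleosomes. Its sites on the chromosomes were located by chromatin immunoprecipitation and sequencing. The samples were 2 libraries from wild-type cells whose Arp4 carried a 3Flag tag and 2 from wild-type cells with no tag. All were grown in YPD, the standard rich medium, at 30 °C to mid-log phase and precipitated with an antibody against Flag. The deposited data were 1 list of 1430 peaks on 16 chromosomes for tagged wild-type cells, with no values per library, so no value below has a replicate error and no comparison was tested. Reads from the untagged cells were not analysed here.

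Each peak has a start, an end, a summit and a fold enrichment, which is the authors' linear ratio over the background taken by the peak caller. Fold serves here to describe and order the peaks of this list. The median fold over all peaks was 1.66, with a range of 1.02 to 6.32. A promoter summit is one no more than 500 bp before and no more than 100 bp after the first base of a gene. A body summit lies over 100 bp from both ends of the gene. Distances along a gene count from its first base as 0.

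Arp4 peaks lay over the bodies of 4 stalk genes, and no stalk promoter held a summit. None of the 5 genes had a promoter summit (0 of 5), a class that held 14.0% of all protein-coding genes and 57.6% of the other 132 cytosolic ribosomal protein genes. In contrast, RPP0, RPP1B, RPP2A and RPP2B each had 1 body summit (4 of 5), against 10.1% of all protein-coding genes and 80.3% of the other ribosomal protein genes. RPP1A had neither. The share of stalk genes with a body summit was thus close to that of the other ribosomal protein genes, and the share with a promoter summit was below it. With 5 genes in 1 list, neither difference was tested.

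**Figure D1:**
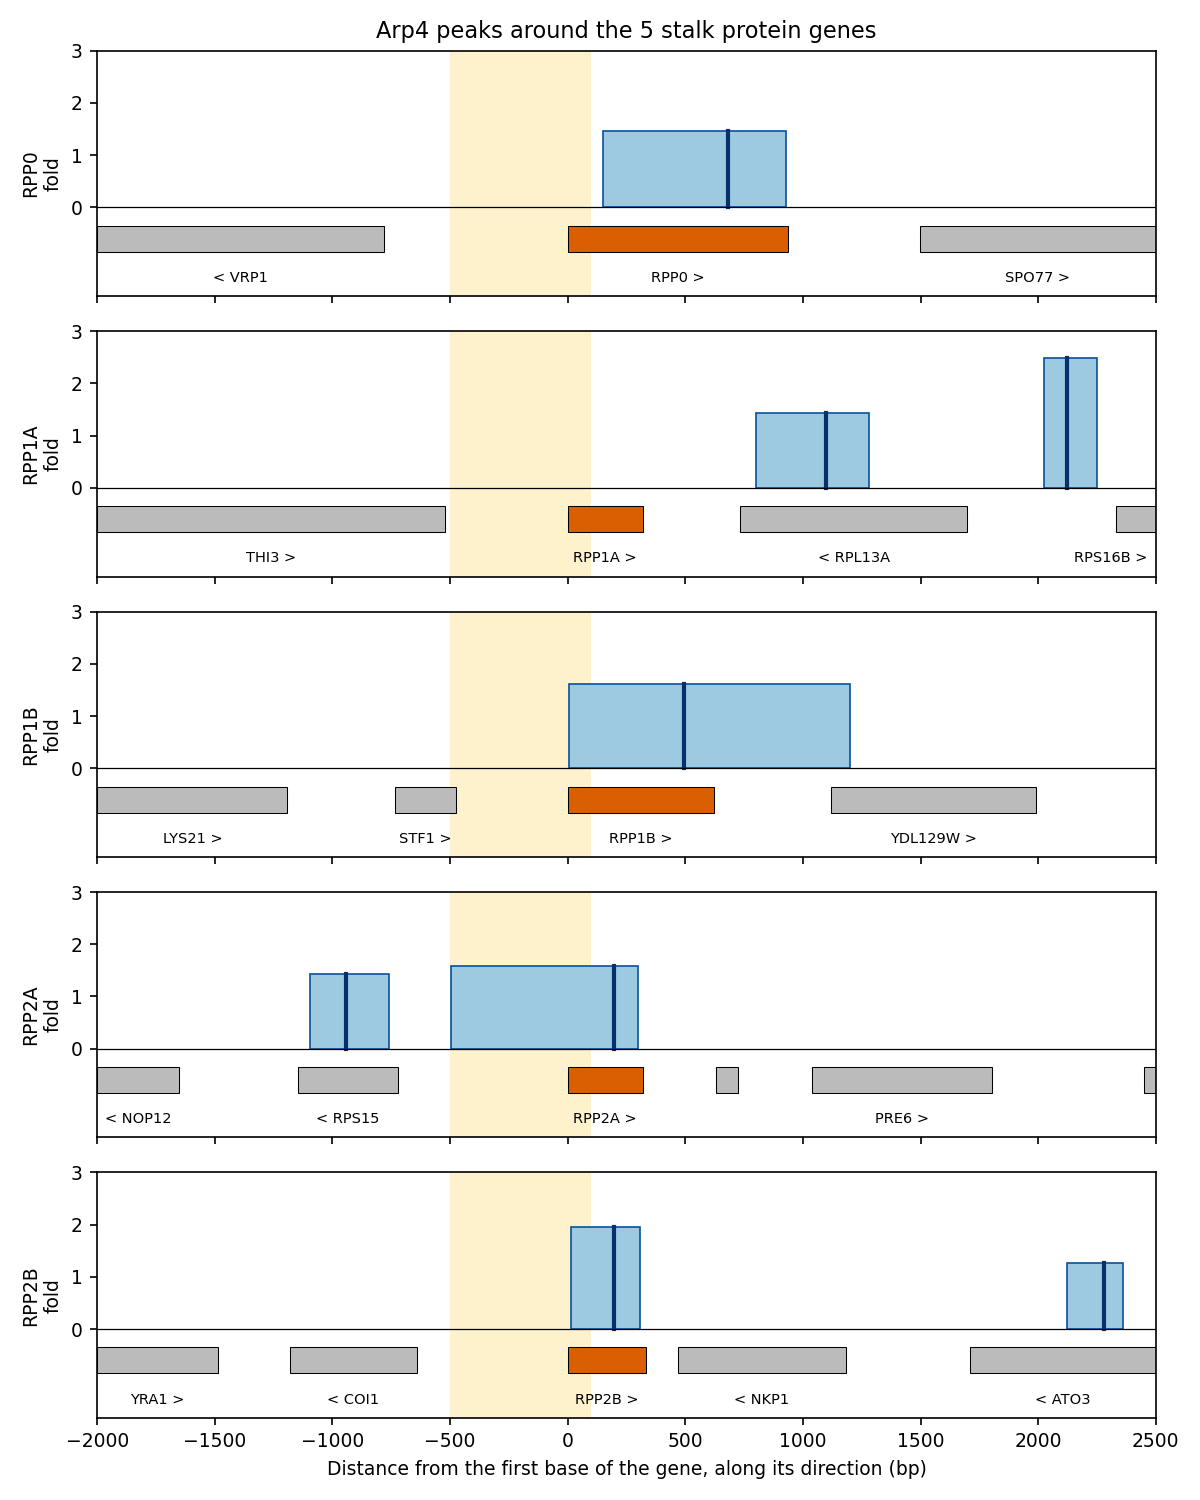
Deposited Arp4 peaks (blue boxes, height is the fold enrichment, dark line is the summit) around each stalk gene (orange) and its neighbours (grey, arrowheads give direction), by distance in bp from the first base of the stalk gene. The shaded promoter window, from 500 bp before to 100 bp after the start, holds no summit at any of the 5 genes, and RPP1A lies under no peak.

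A body summit without a promoter summit was the pattern of 4 of 5 stalk genes. It was found in 46 of the other 132 ribosomal protein genes (34.8%) and in 477 of all 6002 protein-coding genes (7.95%). The commonest pattern among the other ribosomal protein genes, both summits, was found in 60 of them (45.5%, against 2.20% of all genes) and in 0 of 5 stalk genes. By subunit, a promoter summit was present at 42 of 76 other large subunit genes (55.3%) and at 34 of 56 small subunit genes (60.7%). A body summit was present in 64 of 76 large subunit genes and in 42 of 56 small subunit genes. Over all 132, a promoter summit was present at 32 of 76 genes whose span is a multiple of 3. It was present at 44 of 56 genes whose span is not. Every stalk gene but RPP1B has a span that is a multiple of 3.

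**Figure D2:**
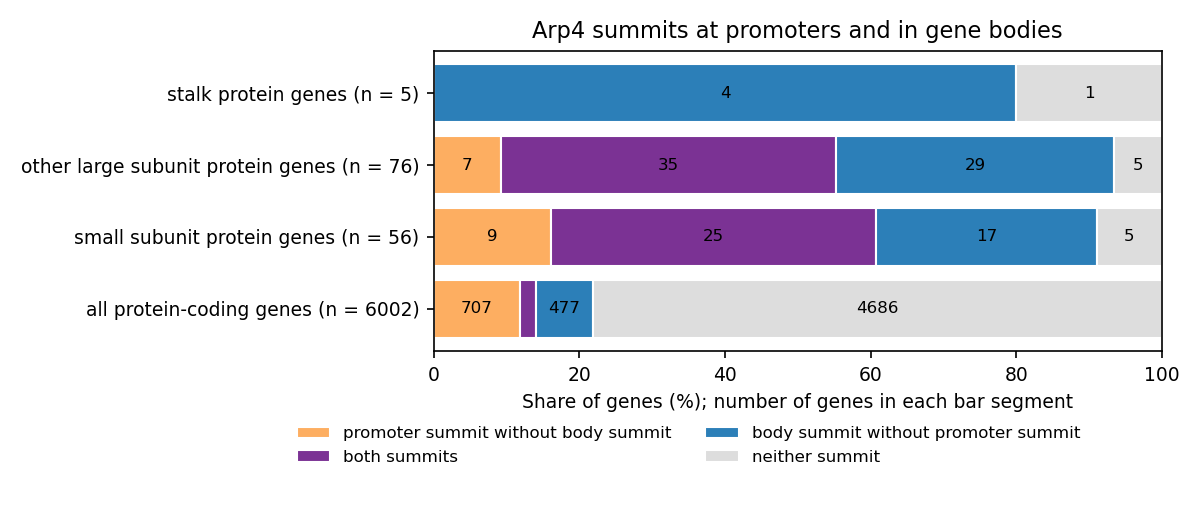
Share of genes, in percent, with a promoter summit alone, both summits, a body summit alone or neither, for the 5 stalk genes, the other large subunit genes, the small subunit genes and all protein-coding genes, with the number of genes written in each segment (the unlabelled segment of all protein-coding genes is both summits). The stalk genes hold body summits alone (4) and neither (1).

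RPP0, which encodes the base of the stalk, has a span of 939 bp. Its single peak, with fold 1.47 and −log10 q 22.0, was on chromosome XII from 806036 to 806817 and was 782 bp wide. The summit lay 681 bp inside the gene, 72.6% along its length. The peak began 149 bp inside the gene and ended 8 bp before its last base, so it stayed within the gene and reached no base of the promoter window. It ranked 1045 of 1430 by fold and was the weakest of the stalk peaks by that measure. The divergent neighbour VRP1, which acts in actin organisation and starts across 780 bp of intergenic DNA, had neither a promoter nor a body summit. SPO77, a sporulation gene 559 bp downstream, had neither as well. The nearest upstream peak summit was 8377 bp from the gene, inside the nuclear pore gene NUP2.

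RPP1A and RPP1B encode the P1 proteins of yeast, and the first lay under no peak while the second was almost wholly covered by one. RPP1A, of 321 bp, had no base under a peak, as was the case for 81.2% of all protein-coding genes and 10.6% of the other ribosomal protein genes. It lies in a group of ribosomal protein genes with RPL13A, convergent with it across 413 bp, and RPS16B. Those 2 genes shared a divergent promoter peak with a fold of 2.48, and each had a body summit, with a fold of 1.44 in RPL13A and 2.14 in RPS16B. The RPL13A body peak (chromosome IV, 308841 to 309320) ended 481 bp from RPP1A. In the other direction the next peak began 11688 bp away (chromosome IV, 321811 to 322122, fold 3.67). The peak-free stretch around RPP1A was therefore 12490 bp long and held 5 other protein-coding genes, beginning with THI3, a regulator of thiamine genes, 519 bp upstream. Stretches at least as long made up 290 of the 1414 between neighbouring peaks (20.5%).

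RPP1B had the widest and most complete cover of the stalk genes. Its gene span is 622 bp, which is not a multiple of 3 and so includes non-coding sequence. The peak, with fold 1.61 and −log10 q 19.0, ran over 1194 bp of chromosome IV from 229912 to 231105. It began 6 bp inside the gene, had its summit 495 bp inside (79.7% along the length), and went on for 578 bp past the gene end. There it crossed the 496 bp intergenic stretch and covered 82 bp of YDL129W, a gene that had no summit of its own. The tandem upstream gene STF1, encoding a mitochondrial ATPase regulator and 474 bp away, had no peak base. Of the RPP1B span, 99.0% was under the peak. Among the 56 other ribosomal protein genes whose span is not a multiple of 3, cover had a median of 42.6% and a range of 0 to 85.3%, so none of these genes reached the RPP1B value. Over all 132 other ribosomal protein genes, 5 were covered at least as fully as RPP1B.

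RPP2A and RPP2B encode the P2 proteins, and both had their summit at nearly the same place. RPP2A, of 321 bp, had its summit 196 bp inside the gene (61.3% along the length), and RPP2B, of 333 bp, 197 bp inside (59.3%). These summits lay 96 and 97 bp beyond the inner edge of the promoter window, the closest of the stalk genes. By its definition a body summit can lie in 119 bp of RPP2A and 131 bp of RPP2B, which limits how far apart their positions can be. The RPP2A peak (chromosome XV, 253802 to 254594) was 793 bp wide, and its fold was 1.59 at a −log10 q of 22.3. The RPP2B peak was the strongest of the stalk peaks, at fold 1.95 and −log10 q 44.7 (chromosome IV, 1239507 to 1239800), and at 294 bp the narrowest. It ranked 372 of 1430 by fold.

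The extents of the P2 gene peaks differed upstream. The RPP2B peak began 15 bp inside the gene and ended 24 bp before its last base, which left the 641 bp shared with the divergent mitochondrial protein gene COI1 without a peak. The convergent kinetochore gene NKP1, 135 bp downstream, had no peak base either. The RPP2A peak ended in a similar place, 23 bp before the last base, but began 495 bp upstream of the gene. It therefore covered most of the 719 bp between RPP2A and the divergent small subunit gene RPS15 and reached into the RPS15 promoter window. RPS15 had no promoter summit and a body summit of its own, with a fold of 1.42 (chromosome XV, 253200 to 253536). The list gives 1 summit per peak, so a weaker maximum within the upstream part of the RPP2A peak could not be seen.

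Whether the stalk promoters count as occupied depended on the definition. With any peak base in the promoter window in place of a summit, RPP1B, RPP2A and RPP2B counted (3 of 5), against 24.2% of all genes and 81.8% of the other ribosomal protein genes. Of these, RPP2A alone had peak bases upstream of its start. With the window extended to 1000 bp upstream, RPP2A counted through the RPS15 body summit 943 bp away (1 of 5), against 23.7% of all genes and 75.8% of the other ribosomal protein genes. RPP0 and RPP1A counted under neither definition.

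By fold, 3 of the stalk body peaks lay below the median of the list and RPP2B lay above it. Their median fold was 1.60 over 4 genes, against 1.78 over 106 other ribosomal protein genes with a body summit and 1.55 over 609 genes of any kind. In the order of body fold over all 110 ribosomal protein genes with a body summit, RPP2B ranked 33, RPP1B 82, RPP2A 85 and RPP0 96. The 3 lower stalk values lay between 1.47 and 1.61, and the range of the other ribosomal protein genes was 1.25 to 2.63, so the stalk values fell inside it. The next genes above and below in that order were RPS9B (1.97) and RPL34A (1.95) for RPP2B. They were RPL19B and RPL10 (both 1.59) for RPP2A, and RPL2B (1.48) and RPL24B (1.46) for RPP0. When weaker peaks than the list's median fold were left out, RPP2B was the 1 stalk gene with a body summit, against 56.8% of the other ribosomal protein genes and 3.43% of all genes.

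**Figure D3:**
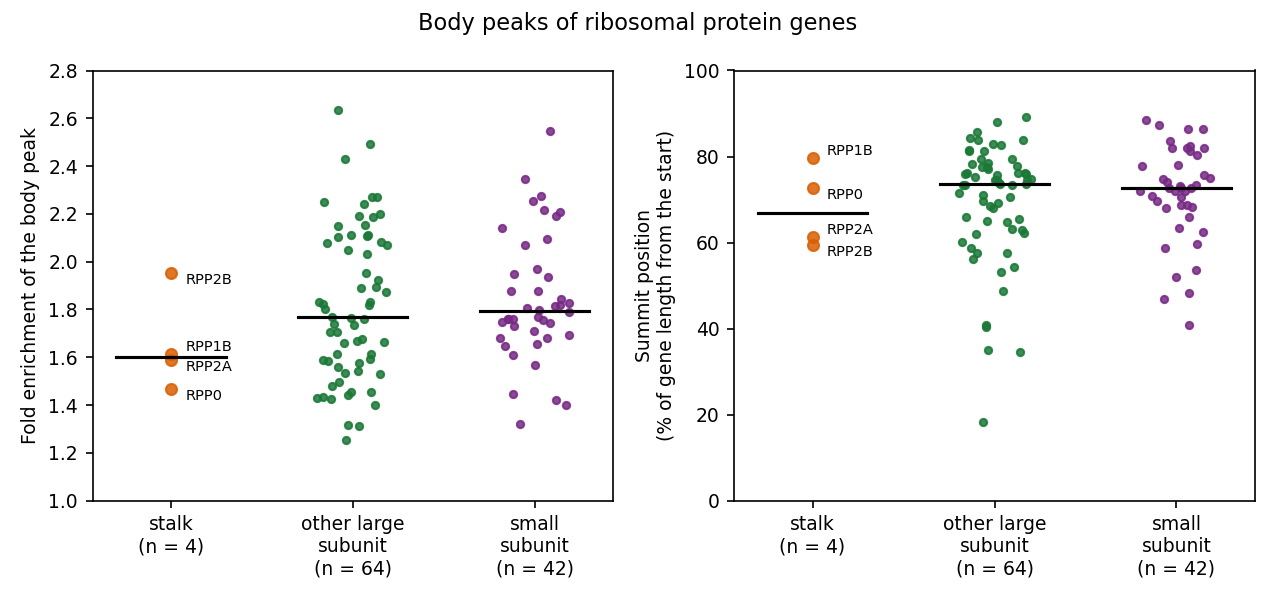
Fold enrichment of the body peak (left) and position of its summit in percent of gene length (right) for each ribosomal protein gene with a body summit, with black lines at the medians. Points are 4 stalk genes, 64 other large subunit genes and 42 small subunit genes, and the stalk values lie within the spread of both other classes in each panel.

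The summits of the stalk body peaks lay toward the gene end. All 4 were past the middle of the gene, from 59.3% to 79.7% along it, with a median of 66.9%. The definition of a body summit confines it to the middle 119 bp of RPP2A and 131 bp of RPP2B. Positions in such short genes are thus not fully comparable with those in longer ones. Among other ribosomal protein genes 97 of 106 body summits were past the middle (91.5%), with a median position of 73.3%, against 56.8% of summits past the middle over all 609 genes with one. The peak ended within 30 bp of the last base of the gene at RPP0, RPP2A and RPP2B (3 of 4). That was so for 39 of 106 other ribosomal protein genes (36.8%) and for 18.7% of all genes with a body summit. The summits of RPP2A and RPP2B lay 124 and 135 bp before the last base. Peak ends in such short genes are thus also not fully comparable with those in longer ones. The stalk peaks were wide, with a median of 787.5 bp against 404 bp for other ribosomal protein genes. RPP0, RPP1B and RPP2A had peaks of 782 to 1194 bp, and RPP2B one of 294 bp.

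Peaks covered a large part of each stalk gene that had one. Cover was 99.0% in RPP1B, 92.8% in RPP2A, 88.3% in RPP2B, 83.3% in RPP0 and 0% in RPP1A. At least 80% was thus covered in 4 of 5 stalk genes, against 26 of 132 other ribosomal protein genes (19.7%) and 3.20% of all genes. The stalk genes are short, with a median span of 333 bp against 783 bp for the other ribosomal protein genes. Of all 334 protein-coding genes of 300 to 400 bp, which include RPP1A, RPP2A and RPP2B, 10.8% had such cover and 12.3% had a body summit. Of the 7 other ribosomal protein genes in that range, 5 had such cover and 6 had a body summit. Of the 56 other ribosomal protein genes whose span is not a multiple of 3, 1 had such cover, and their median cover was 42.6%. Median cover was 60.9% over the 76 whose span is a multiple of 3, as it is in every stalk gene but RPP1B. Median cover was 74.4% over the 46 other ribosomal protein genes with a body summit alone, against 46.0% over all 132.

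**Figure D4:**
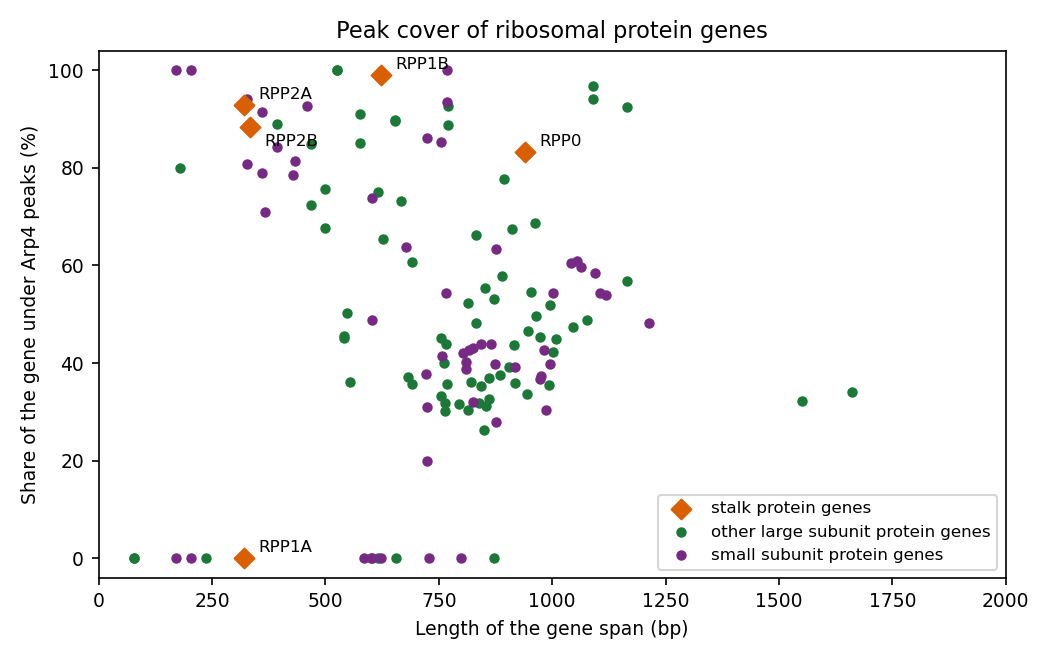
Share of each ribosomal protein gene under Arp4 peaks, in percent, by length of the gene span in bp, with stalk genes as labelled diamonds. RPP0, RPP1B, RPP2A and RPP2B lie between 83.3% and 99.0%, and RPP1A lies at 0.

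Most ribosomal protein genes of yeast exist as pairs of similar copies, and the stalk has such pairs in RPP1 and RPP2. In the RPP2 pair both copies had a body summit, as in 41 of 57 other pairs, and neither had a promoter summit, as in 11 of 57. The body folds of RPP2A and RPP2B differed by 0.30 on the log2 scale, against a median difference of 0.14 over the 41 other pairs, of which 10 differed at least as much. In the RPP1 pair 1 copy had a body summit, as in 8 of 57 other pairs. Some of the 57 pairs, such as RPS29 with copies of 171 bp, are too short to hold a body summit by its definition. The difference in cover between RPP1B and RPP1A was 99.0 percentage points, and 2 of 57 other pairs, RPS28 and RPS29, differed at least as much. The RPS28 copies, of 204 bp, are also short, so a single peak can cover such a gene whole. The median difference over the other pairs was 6.69 points. How reads that match both copies of a pair were placed is not stated, so the likeness of copies is uncertain.

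Genes whose products build, meet or regulate the stalk were looked at next. Of 27 such genes, 5 had a promoter summit (18.5%, against 14.0% of all genes) and 10 a body summit (37.0%, against 10.1%). The body summits were in 2 of 2 stalk base genes, 7 of 11 factor genes and 1 of 8 regulator genes. The genes for stalk assembly and for the P-protein kinase had none. The stalk base genes, RPL12A and RPL12B, are themselves among the other ribosomal protein genes, of which 80.3% had a body summit. Both RPL12 copies, which encode the protein beside P0 at the stalk base, had a body summit at nearly the same place, 203 bp inside RPL12A with a fold of 1.40 and 201 bp inside RPL12B with 1.31. RPL12A also had a promoter summit 343 bp upstream (2.84), and RPL12B had none. How reads that match both RPL12 copies were placed is not stated, so the likeness of their body summits is uncertain. MRT4, a relative of P0 that holds its place on the maturing subunit, and YVH1, the phosphatase that releases Mrt4, had neither kind of summit, as was the case for 78.1% of all protein-coding genes.

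Among 11 genes for factors that meet the stalk, 7 had a body summit and 4 a promoter summit. The shares of all genes were 10.1% and 14.0%. The 11 genes are 1314 to 8019 bp long, so a body summit has more room in them than in the stalk genes. FUN12, encoding the initiation factor eIF5B, had the highest promoter fold (6.32) and a body fold of 1.54, the strongest of 3 body peaks. SUP35, encoding the release factor eRF3, had 2.27 at the promoter and 1.37 in the body. Both promoter summits lay inside the gene, 54 bp after the first base of FUN12 and 39 bp after that of SUP35. YEF3, encoding the fungal elongation factor eEF3, had a body summit alone (2.21). The eEF1A genes TEF1 (1.82) and TEF2 (1.81) and the eEF2 genes EFT1 (1.78) and EFT2 (1.64), named after their values were seen, also had body summits alone. The copies within each of these pairs are near-identical, and how reads that match both were placed is not stated, so their values are uncertain. These 4 genes are among the 7 with a body summit, so that count is uncertain in the same way. EFT2 lies near RPP2B, and its peak was 2422 bp wide and covered 95.8% of the gene. The 4 genes of casein kinase 2 (CKA1, CKA2, CKB1 and CKB2), which phosphorylates the acidic P proteins, had no summit of either kind, against the 78.1% of all genes without one. Of 8 genes for regulators of ribosomal protein genes, RAP1 alone, the general activator of these promoters, had body summits. RAP1 had 2, the stronger with a fold of 1.34, and no promoter summit. The other 7 genes had neither kind. The regulator counts, 1 of 8 with a body summit and 7 of 8 with neither, were near the shares of all genes (10.1% and 78.1%).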

How the data were processed

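The labels describe 4 libraries of Flag immunoprecipitated DNA, 2 from Arp4-3Flag cells and 2 from untagged cells. The submitters' processing notes name MACS2, SAMtools 1.4, BWA 0.7.15-r1140 and fastp 0.21.0. The genome build, control, threshold, treatment of reads with several matches and pooling of libraries were not given in the sources used here. As deposited, the list has no header and follows the narrowPeak layout. Its fold is the authors' linear ratio at the summit. Its −log10 q values are the authors', the lowest being 1.31. The deposited score repeats the −log10 q, multiplied by 10 and cut to a whole number, and was left aside. Read depth is unknown, and a gene without a summit had none above the authors' threshold.

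Starts were raised by 1 to count positions from 1, and summits are start plus the deposited offset. Gene spans and names came from the R64 table, with strand read from systematic names, and coordinates are printed for peaks alone. As a check of the build, 48 of 275 tRNA genes had a summit within 100 bp at the positions as given, against 3 to 13 with all summits shifted by 200 to 1000 bp. The strongest peak stood for a gene with several. Python 3.11.15 with numpy 2.4.6, pandas 2.3.3 and matplotlib 3.10.9 was used, and the assignment of summits to genes was tested on simulated data.

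The stalk genes and the lists were chosen with earlier results of these data known. Named genes are the 5 stalk genes, their neighbours, stalk-related genes with a summit (up to 3 per role by fold) and the ribosomal protein genes next to each in fold. That order was planned on promoter fold and was made on body fold, since no stalk gene had a promoter summit. Outside this rule, MRT4, YVH1 and the casein kinase 2 genes, which have no summit, and TEF1, TEF2, EFT1 and EFT2 were named after their values were seen, as were genes holding a nearby summit or matching a paralogue count. The genes next to RPP1B in that order are not reported here. The classes of cover, gene length, span divisible by 3, peak end and paralogue pairs were added after the values were seen.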

Additional observations from a re-analysis of the deposited data

How the results depend on the processing

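The number of stalk genes with a promoter summit, 0, was 1 with a window reaching 1000 bp upstream and 3 with any peak base counted, and the number with both summits, 0, became 1 and 3 in the same way. The shares of all genes moved too, to 23.7% and 24.2% for a promoter summit (from 14.0%) and to 3.72% and 12.3% for both summits (from 2.20%). For both summits, the other ribosomal protein genes reached 62.1% and 74.2%. Both stayed at 0 with a window of 250 bp upstream to the start, with summits assigned to the nearest start alone, and with either stricter threshold. The number with a body summit, 4, was 1 when peaks under the median fold were left out and 4 under the other 3 alternatives. The median body fold of 1.60 became 1.95, from RPP2B alone, when peaks under the median fold were left out, and 1.66 as a mean. The share of all stalk gene bases under peaks, 78.5% against 50.0% for other ribosomal protein genes, was 11.6% against 33.6% without peaks under the median fold and 88.9% against 53.4% without the first and last 100 bp of each gene. A −log10 q of at least 10 changed none of these values for the stalk genes. The threshold on fold removes the peaks of RPP0, RPP1B and RPP2A by construction. Promoter fold, its difference from body fold and promoter distance had no value, since no stalk gene had a promoter summit. No paired analysis was possible because the list holds no values per library, and for the same reason no library could be left out.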
